A study of Mus musculus with 8 samples.

Results

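The cartilage collagens are the collagen chains that make up the fibrils of hyaline cartilage, here Col2a1 (collagen II), Col9a1, Col9a2 and Col9a3 (collagen IX), Col11a1 and Col11a2 (collagen XI) and Col27a1 (collagen XXVII). They were chosen by gene identity, with earlier results of these data known. All 7 were matched by gene symbol to 1 probe set each, out of 22180 genes measured and out of 44 collagen genes on the array. The measurements came from primary articular chondrocytes of the femoral condyles and tibial plateaus of wild-type ICR mice aged 5 days, grown as a monolayer. Cells of 4 samples had been infected with Ad-Zip8, an adenovirus that expresses the zinc importer ZIP8 (gene Slc39a8), and cells of another 4 with Ad-null, the empty control virus, and RNA was taken 24 h after infection. Both groups therefore carried adenovirus, and the labels name neither the promoter that drives ZIP8 nor the dose of virus. The labels call the samples biological replicates and do not say which animals or pools each came from. The p-values reflect only how these samples vary, and that may be technical.

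Collagen II is the bulk of the cartilage fibril and gives it tensile strength. Collagen XI sits in the fibril core and limits its width, and its remaining chain is a product of Col2a1. Collagen IX, built from the products of Col9a1, Col9a2 and Col9a3, decorates the fibril surface and is crosslinked to collagen II. Collagen XXVII is a minor fibrillar collagen of developing cartilage. In chondrocytes their genes are driven by SOX9 with SOX5 and SOX6, largely through enhancers inside the genes, and a chondrocyte that stops making them while collagen I is made is called dedifferentiated.

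The start regions of chains that share a molecule or a fibril are shown first because these genes all read lower in Ad-Zip8 samples, though by unequal amounts. RefSeq (GRCm38.p6) gave promoter windows for 5 of the 7 genes, and the stretch before the first annotated base of the gene was long enough to print for 3 of them, on the plus strand in each case.
Col9a1, chr1:24177360-24177588: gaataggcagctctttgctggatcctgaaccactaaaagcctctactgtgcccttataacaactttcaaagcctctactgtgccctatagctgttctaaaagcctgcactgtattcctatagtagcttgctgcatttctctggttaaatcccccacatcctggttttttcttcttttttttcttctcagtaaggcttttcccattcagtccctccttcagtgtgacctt
Col9a2, chr4:121039316-121039565: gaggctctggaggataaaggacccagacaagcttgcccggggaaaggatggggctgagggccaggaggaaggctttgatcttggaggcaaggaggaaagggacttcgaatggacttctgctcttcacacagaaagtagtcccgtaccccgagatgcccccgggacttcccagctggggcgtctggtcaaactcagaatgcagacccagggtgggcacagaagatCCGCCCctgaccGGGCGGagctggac
Col11a1, chr3:114030290-114030478: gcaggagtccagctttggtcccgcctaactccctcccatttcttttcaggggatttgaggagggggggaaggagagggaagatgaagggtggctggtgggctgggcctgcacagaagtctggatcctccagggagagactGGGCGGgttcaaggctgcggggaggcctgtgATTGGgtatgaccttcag
Capitals mark matches on either strand to a GC box (GGGCGG or CCGCCC) or a CCAAT box (CCAAT or ATTGG). The SOX core (ACAAT or ATTGT), which shares its CAAT letters with the CCAAT box, and the TATA box (TATAAA or TTTATA) were searched too. The Col9a1 stretch held no match to any of the 4 motifs. The Col9a2 stretch held 2 GC boxes in opposite orientation just before the start, and 32.7% of all 32851 windows of 250 bases held at least 1. The Col11a1 stretch held 1 GC box and 1 CCAAT box, found in 30.6% and 28.3% of windows of 189 bases. No SOX core was found in the 250 bases before the start in any of the 6 windows of the 5 genes, against 27.7% of all windows. A match or its absence in these letters is a description and says nothing about where a factor binds.

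Slc39a8 stood at 11.2, 10.9, 11.2 and 11.2 on the log2 scale in Ad-Zip8 replicates 1 to 4, against 6.25, 6.27, 6.12 and 6.15 in Ad-null replicates 1 to 4. All values below are log2 intensities of 1 probe set as the authors deposited them, and a change is the Ad-Zip8 mean minus the Ad-null mean, fitted with limma over all genes and adjusted by the Benjamini-Hochberg method over all of them, with 0.05 as the threshold. The chondrocyte identity of the cells was checked on 16 markers, of which 7 are the cartilage collagens themselves. All 16 lay above the median gene, 14 of them fell (6 of these are cartilage collagens) and none rose. Over all genes, 5.12% fell and 5.48% rose. The summed intensity of the 16 markers, cartilage collagens included, was 15.5 to 15.8 on the log2 scale in Ad-Zip8 samples and 16.1 to 16.2 in Ad-null samples. Of the markers of other cells, 0 of 4 for endothelium, 0 of 2 for adipocytes, 0 of 1 for red blood cells, 1 of 4 for skeletal muscle, 1 of 4 for osteoclasts, 1 of 5 for macrophages and 2 of 5 for osteoblasts lay above the median gene, as did 5 of 5 for fibroblasts and synovium. Their summed intensity on the log2 scale overlapped between the groups except for macrophages, with 7.97 to 8.22 in Ad-Zip8 samples and 7.51 to 7.66 in Ad-null samples. The macrophage gene called was Cd68 (change 0.83), while Adgre1, Csf1r, Ptprc and Lyz2 were not called. The called genes of the other lists were Pdgfra (0.86), Ibsp (0.58), Adipoq (0.34) and Sp7 (-0.79), and the part of other cells in the collagen values was not tested.

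All 7 cartilage collagen genes were lower in every Ad-Zip8 sample than in any Ad-null sample. Across all genes, 9.74% were lower without overlap between the groups. Of the 7 genes, 6 fell at an adjusted p under 0.05, against 5.12% of all genes, and the remaining one, Col2a1, did not pass. The median change of the 7 genes was -0.46 on the log2 scale, against -0.02 over all genes. Of the 2308 genes with a mean reading of at least that of Col27a1, the lowest of the 7, 27.7% were lower without overlap and 13.5% fell, with a median change of -0.07. The samples are bulk cultures, so fewer cells that make these chains and less of their RNA per cell cannot be told apart.

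**Figure D1:**
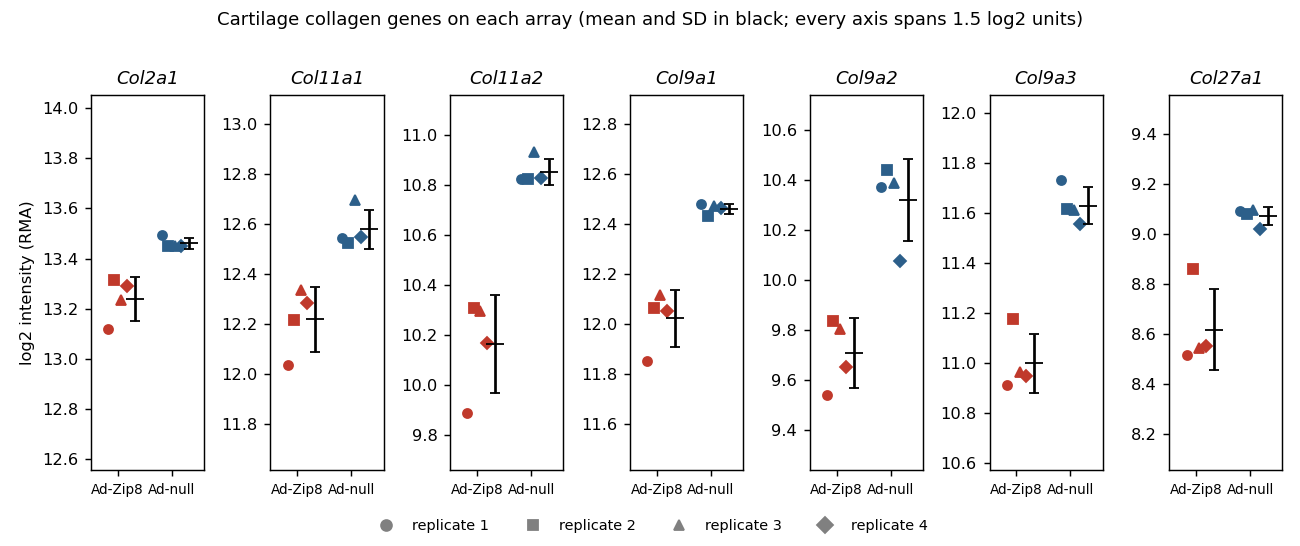
Log2 intensity (y axis, each panel spanning 1.5 log2 units) of the 7 cartilage collagen genes in the 4 Ad-Zip8 samples (red, left) and the 4 Ad-null samples (blue, right), with the symbol giving the replicate number and the black bar the mean and SD. Every red point lies below every blue point of its gene, and Ad-Zip8 replicate 1 is the lowest point in all 7 panels.

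Col2a1, the gene of the main fibril chain, read 13.12, 13.32, 13.24 and 13.29 in Ad-Zip8 replicates 1 to 4. The Ad-null replicates 1 to 4 read 13.49, 13.45, 13.45 and 13.45. The highest Ad-Zip8 sample was 0.13 below the lowest Ad-null sample. The change was -0.22 (SE 0.07, 95% interval -0.38 to -0.07), or 1.17-fold lower, and did not pass in the limma fit (adjusted p = 0.0790). The call turned on the variance model and on dim genes: the limma adjusted p was 0.00587 when the prior variance followed intensity and 0.0206 when genes below the median level were left out. Its readings lay 0.43 to 0.59 below the brightest probe set of the array in Ad-Zip8 samples and 0.30 to 0.35 below it in Ad-null samples. The scale of an array can be compressed near its upper end. Compression was not measured here, and its part in the size of this change was not tested.

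Col11a1 encodes the alpha 1 chain of collagen XI. It read 12.04, 12.22, 12.34 and 12.28 in Ad-Zip8 replicates 1 to 4, against 12.54, 12.52, 12.70 and 12.55 in Ad-null replicates 1 to 4. It fell by 0.36 log2 units (SE 0.08, 95% interval -0.55 to -0.17), 1.28-fold, with the largest limma adjusted p of the 6 genes called (0.0237). This call was lost without Ad-Zip8 replicate 1 (adjusted p = 0.0581) or 2 (0.0574), and without Ad-null replicate 1 (0.0504), 3 (0.0622) or 4 (0.0531), with a change of -0.30 to -0.37 in those fits.

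Col11a2, the gene of the alpha 2 chain of collagen XI, had the largest change of the 7. It read 9.89, 10.31, 10.29 and 10.17 in Ad-Zip8 replicates 1 to 4, against 10.83, 10.82, 10.93 and 10.83 in Ad-null replicates 1 to 4. The gap between the groups, 0.52, was also the widest of the 7. The gene fell by 0.69 log2 units (SE 0.10, 95% interval -0.91 to -0.47), 1.61-fold (limma adjusted p = 0.00166).

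The genes of the collagen IX chains all fell. Col9a1, whose product carries the globular domain that projects from the fibril, read 11.85, 12.06, 12.11 and 12.05 in Ad-Zip8 replicates 1 to 4, against 12.48, 12.43, 12.47 and 12.46 in Ad-null replicates 1 to 4. The Ad-null samples lay within a narrow band (SD 0.02, n = 4) and the Ad-Zip8 samples were more spread (SD 0.12, n = 4). The change was -0.44 (SE 0.08, 95% interval -0.61 to -0.27), 1.36-fold lower (limma adjusted p = 0.00447).

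Col9a2 read 9.54, 9.84, 9.81 and 9.65 in Ad-Zip8 replicates 1 to 4, against 10.37, 10.44, 10.39 and 10.08 in Ad-null replicates 1 to 4. Ad-null replicate 4 lay nearest to the Ad-Zip8 samples, 0.24 above the highest of them. The change was -0.61 (SE 0.10, 95% interval -0.84 to -0.38), 1.53-fold lower (limma adjusted p = 0.00409). Col9a3 read 10.91, 11.17, 10.96 and 10.95 in Ad-Zip8 replicates 1 to 4, against 11.73, 11.62, 11.61 and 11.55 in Ad-null replicates 1 to 4. Its groups were 0.38 apart at their nearest samples. The change was -0.63 (SE 0.08, 95% interval -0.81 to -0.45), 1.55-fold lower, with the smallest limma adjusted p of the 7 genes (8.29e-04).

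Col27a1, the gene of collagen XXVII, read 8.51, 8.86, 8.54 and 8.55 in Ad-Zip8 replicates 1 to 4, against 9.09, 9.08, 9.10 and 9.02 in Ad-null replicates 1 to 4. Ad-Zip8 replicate 2 stood above the other samples of its group and 0.16 below the lowest Ad-null sample. The change was -0.46 (SE 0.09, 95% interval -0.65 to -0.26), 1.37-fold lower (limma adjusted p = 0.00874).

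In the RefSeq annotation Col27a1 is the host of Mir455, a microRNA gene known from cartilage, which lies within it on the same strand. Its mature products, with the seed (bases 2 to 8) in capitals, are printed because the host gene fell.
mmu-miR-455-5p, chr4:63256867-63256888: uAUGUGCCuuuggacuacaucg
mmu-miR-455-3p, chr4:63256904-63256924: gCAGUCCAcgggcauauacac
The probe set of Mir455, which was singled out after its values were seen, read 5.72, 5.69, 5.75 and 5.84 in Ad-Zip8 replicates 1 to 4, against 5.67, 5.87, 5.75 and 5.74 in Ad-null replicates 1 to 4. The groups overlapped and the change was -0.01 (SE 0.07, 95% interval -0.18 to 0.15, limma adjusted p = 0.945), whereas the interval of Col27a1 ended at -0.26. The difference between host and microRNA gene was not tested, and these readings lay close to the median gene of the arrays (5.60 to 5.66).

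Within the Ad-Zip8 group, replicate 1 was the lowest sample for 7 of 7 genes and averaged 0.16 below its group mean (mean deviation -0.16). Replicate 2 was the highest for 5 of 7 and averaged 0.12 above. Slc39a8 read 11.16 in replicate 1, 10.90 in replicate 2, 11.24 in replicate 3 and 11.20 in replicate 4. Replicate 3, with the highest Slc39a8, was the highest for 2 of the 7 genes (mean deviation 0.05), and replicate 4 had a mean deviation of -0.003. Whether the level of Slc39a8 bears on the collagen values was not tested. Without Ad-Zip8 replicate 1 the changes ran from -0.18 (Col2a1) to -0.60 (Col9a3 and Col11a2) and 5 genes were called lower, with Col11a1 lost. Without Ad-Zip8 replicate 2 they ran from -0.25 (Col2a1) to -0.74 (Col11a2), again with 5 genes called. Over all genes 708 fell without replicate 1 and 828 without replicate 2, against 1136 with all arrays. SDs within a group were between 0.02 and 0.19 over the 7 genes.

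The 7 genes did not change by equal amounts. Whether the chains of 1 molecule, or the minor collagens and Col2a1, changed unequally was tested on the difference of their log2 values within each array, by exact two-sided permutation over the 70 splits of the 8 arrays, for 10 pairs. Of the 6 pairs with Col2a1, 5 gave the smallest p that these splits allow (exact p = 0.0286, adjusted over the 10 pairs 0.0476). These 5 pairs share the Col2a1 values, so they are not separate results. Their adjusted p passed only because Col11a1 minus Col11a2 reached the same smallest p. Col11a2 changed by 0.47 more than Col2a1 (difference -0.47, SE 0.07), Col9a3 by 0.41 more (-0.41, SE 0.05) and Col9a2 by 0.39 more (-0.39, SE 0.09). Col27a1 (-0.23, SE 0.06) and Col9a1 (-0.22, SE 0.03) differed from Col2a1 by less. Col11a1 minus Col2a1 was -0.14 (SE 0.06), with overlapping groups and a permutation p that did not pass (exact p = 0.114, adjusted 0.127). These splits ignore the replicate number. Taken within each number, Ad-Zip8 minus Ad-null, Col11a1 minus Col2a1 lay between -0.17 and -0.10 and was negative in 4 of 4, but an exact sign-flip test over 4 numbers cannot go below p = 0.125.

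Between the collagen XI chains, Col11a1 minus Col11a2 was 0.33 (SE 0.06, exact p = 0.0286, adjusted 0.0476), so the ratio of the signals moved in favour of Col11a1 in all 4 Ad-Zip8 samples. Among the collagen IX chains no pair passed. Col9a1 minus Col9a3 was 0.19 (SE 0.07, exact p = 0.0571, adjusted 0.0816), Col9a1 minus Col9a2 was 0.17 (SE 0.09, exact p = 0.114, adjusted 0.127) and Col9a2 minus Col9a3 was 0.02 (SE 0.08, exact p = 0.80, adjusted 0.80). Within each replicate number, Col9a1 minus Col9a3 (0.07 to 0.30) and Col9a1 minus Col9a2 (0.02 to 0.24) were positive in 4 of 4, while Col9a2 minus Col9a3 was negative in 2 and positive in 2. Each sign held with any 1 array left out, except for Col9a2 minus Col9a3, which ran from -0.04 to 0.06. The genes with the smallest changes, Col2a1, Col11a1 and Col9a1, were also those with the highest readings (Ad-null means of 13.5, 12.6 and 12.5), and compression at the upper end of the scale cannot be told apart here from an unequal change in RNA. The order did not hold at the lower end, where Col27a1 (Ad-null mean 9.07) changed by -0.46, close to Col9a1 (-0.44). Over the 6 other chondrocyte markers with an Ad-null mean of at least 12, the change ran from -1.14 (Matn1) to -0.19 (Sox9). The brightest of them, Acan (Ad-null mean 13.1), changed by -0.54.

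**Figure D2:**
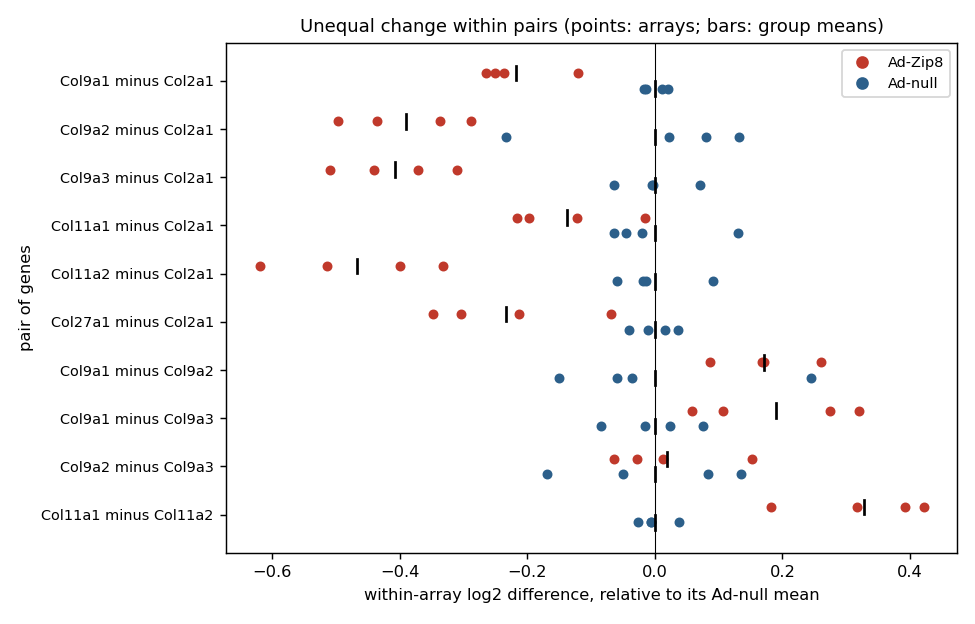
Within-array log2 difference between the genes of each of the 10 pairs (x axis, relative to its mean in Ad-null samples), with a point per array for Ad-Zip8 (red, upper) and Ad-null (blue, lower) and a black bar at the group mean. The Ad-Zip8 points of Col9a1, Col9a2, Col9a3, Col11a2 and Col27a1 against Col2a1 lie left of all Ad-null points, and those of Col11a1 minus Col11a2 lie right of them.

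**Figure D3:**
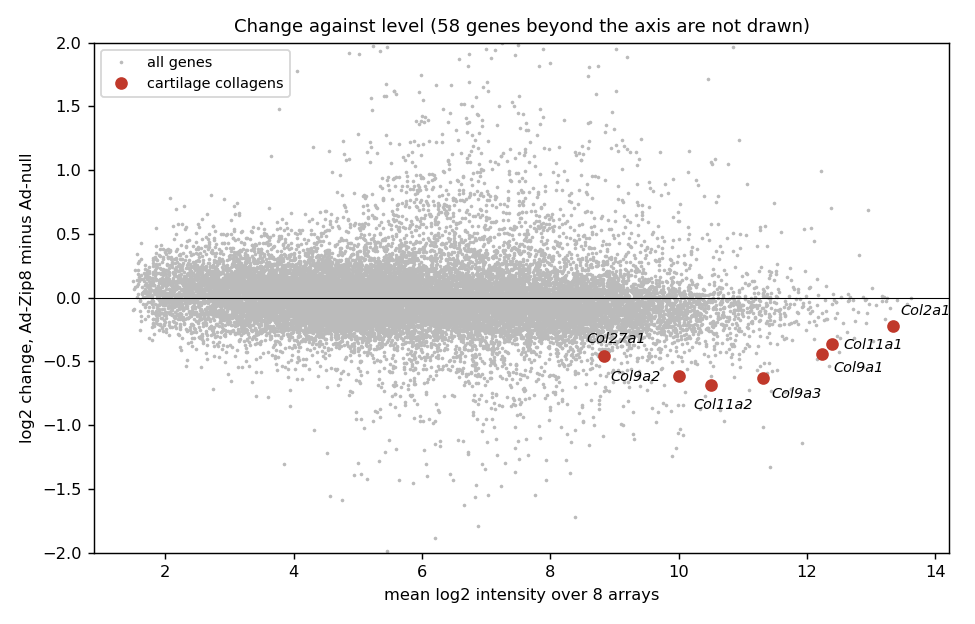
Log2 change, Ad-Zip8 minus Ad-null (y axis), against mean log2 intensity over the 8 arrays (x axis) for all genes (grey) and the 7 cartilage collagen genes (red). The 7 points lie below 0 in the right part of the range, and the change is smallest for Col2a1 at the highest intensity.

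The genes whose profile over the 8 arrays lay nearest to Col2a1, by root mean square difference after centring each gene on its mean, were Rtl3 (0.019), Mrpl4 (0.020), Abt1 (0.026), Stt3a (0.026) and Lonp1 (0.028), out of 10515 genes at or above the median level, with the 7 genes and symbols of the Gm, Mir and Rik kinds left out. Their changes were between -0.21 (Stt3a, Rtl3 and Mrpl4) and -0.23 (Lonp1), and none passed the test. A change close to that of Col2a1 follows from how they were picked, since the distance includes the size of the change. Stt3a encodes a subunit of the oligosaccharyltransferase, Mrpl4 a mitochondrial ribosomal protein and Lonp1 a mitochondrial protease. The nearest of the other cartilage collagens was Col11a1 (0.10), and 1951 of the 10515 genes lay nearer to Col2a1 than it did.

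The other collagen genes had smaller median changes. Among the 7 fibrous fibrillar collagens, the chains of collagens I, III, V and XXIV, 2 fell and 1 rose, while 4 missed the threshold. Their median change was -0.06, and 5.12% of all genes fell and 5.48% rose. Col1a2 fell by 0.38 log2 units (SE 0.09, adjusted p = 0.0218), Col5a1 fell by 0.24 (SE 0.07, adjusted p = 0.0465) and Col5a3 rose by 0.37 (SE 0.10, adjusted p = 0.0426). With the replicate number as a block Col5a1 did not pass (adjusted p = 0.0705), so 1 fell and 1 rose. These calls did not hold with fewer arrays: with any 1 of the 8 arrays left out, 0 or 1 of the 7 genes was called. Calls over all genes dropped as well, to between 708 and 923 lower and 924 and 1119 higher, from 1136 and 1216. Col1a2 and Col5a1 had 2 probe sets each, and with the mean over all probe sets of a gene 1 of the 7 genes fell and 1 rose. With arrays scaled to a common 75th percentile 2 fell and none rose. Col1a1 and Col3a1, the fibroblast-type collagens, did not pass.

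Col1a1 read 11.19, 11.13, 10.75 and 10.77 in Ad-Zip8 replicates 1 to 4, against 11.22, 11.24, 10.80 and 10.81 in Ad-null replicates 1 to 4. In both groups replicates 1 and 2 were higher than 3 and 4, and the groups overlapped. The change was -0.06 (SE 0.15, 95% interval -0.38 to 0.27, limma adjusted p = 0.869), and that of Col3a1 was -0.07 (SE 0.10, adjusted p = 0.746). Within each replicate number the Ad-Zip8 sample was below the Ad-null sample in 4 of 4 for both genes, by differences of -0.11 to -0.03 for Col1a1 and -0.13 to -0.02 for Col3a1, and with the replicate block neither passed (adjusted p = 0.630 and 0.534).

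Of the 30 collagen genes outside the cartilage and fibrous groups, 3 fell, none rose and 27 missed the threshold. Their median change was -0.11, and 5.12% of all genes fell and 5.48% rose. The largest change was in Col10a1, the collagen of hypertrophic chondrocytes. It read 11.05, 10.62, 10.93 and 10.44 in Ad-Zip8 replicates 1 to 4, against 12.33, 12.03, 12.25 and 11.73 in Ad-null replicates 1 to 4. It fell by 1.33 log2 units (SE 0.16, limma adjusted p = 6.57e-04). Col14a1, a fibril-associated collagen related to collagen IX, fell by 0.68 (SE 0.12, adjusted p = 0.00559) and Col26a1 by 0.37 (SE 0.09, adjusted p = 0.0242), both from dim readings (Ad-null means of 5.90 and 6.58). The basement membrane chains Col4a1 to Col4a6 and the microfibril chains Col6a1, Col6a2 and Col6a3 had none called. The Col4 chains were dim, with means over the 8 arrays between 4.78 (Col4a3) and 6.81 (Col4a5). Most of the 30 genes read below Col27a1, the dimmest cartilage collagen (mean 8.84). A missed call in dim genes does not show that they were unchanged.

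**Figure D4:**
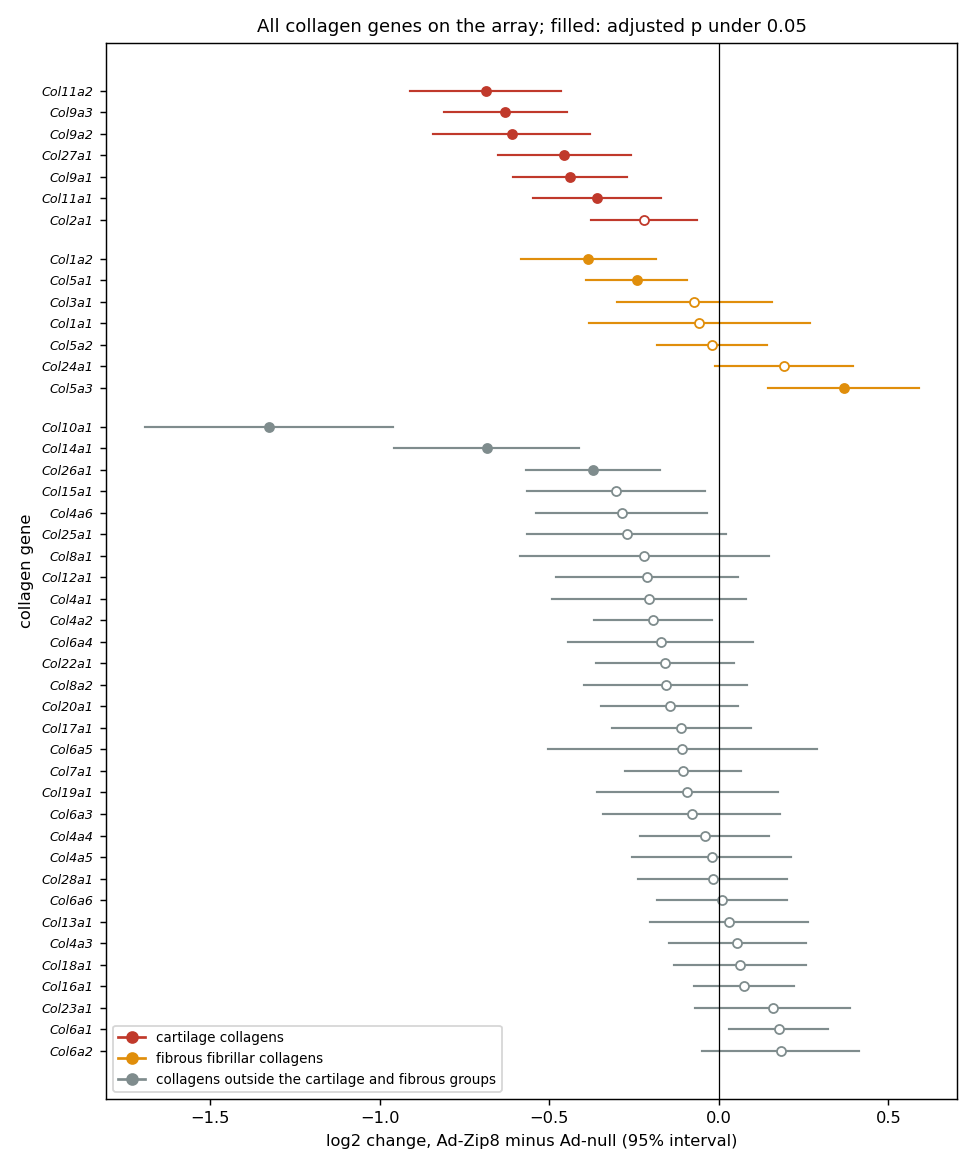
Log2 change, Ad-Zip8 minus Ad-null, with its 95% interval (x axis) for each of the 44 collagen genes (rows), coloured by group, filled where the adjusted p was under 0.05. The intervals of all 7 cartilage collagen genes lie below 0, while those of 4 of the 7 fibrous fibrillar collagens include 0.

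The list of transcription factor genes that act on cartilage collagen genes also holds Wwp2, whose product modifies SOX9. Of the 11 genes of this list measured, 2 rose and 3 fell, while 6 missed the threshold. The median change was -0.23, and 5.48% of all genes rose and 5.12% fell. Sox9, the master regulator, read 11.92, 12.10, 11.97 and 12.08 in Ad-Zip8 replicates 1 to 4, against 12.21, 12.23, 12.18 and 12.19 in Ad-null replicates 1 to 4. The groups of Sox9 did not overlap, and as for the collagens its lowest sample was Ad-Zip8 replicate 1. Its change was -0.19 (SE 0.07, 95% interval -0.34 to -0.03, limma adjusted p = 0.137). Sox5 (-0.23, SE 0.07, adjusted p = 0.0595) and Sox6 (-0.31, SE 0.09, adjusted p = 0.0681), whose products help SOX9 on collagen enhancers, did not pass either, also without overlap between the groups, though Sox6 passed with the replicate block (adjusted p = 0.0488). As for Col2a1, these calls turned on the variance model and on dim genes. Sox9, Sox5 and Sox6 all passed as lower with the variance trend and when dim genes were left out.

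The genes that rose were Runx1, a runt-family factor of early cartilage (1.81, SE 0.13, adjusted p = 2.74e-05), and Arid5b, a coactivator of SOX9 (0.79, SE 0.10, adjusted p = 6.03e-04). The genes that fell were Mef2c, a driver of Col10a1 (-0.79, SE 0.10, adjusted p = 7.62e-04) and, named after their values were seen, the SOX9 relative Sox8 (-0.80, adjusted p = 8.99e-04) and Wwp2 (-0.29, adjusted p = 0.0436), whose product modifies SOX9. With the replicate number as a block 5 of these genes fell and 2 rose, since Sox6 and Nkx3-2 (-0.34, adjusted p = 0.0233, against 0.0906 without the block), a repressor in the chondrocyte lineage named after its values were seen, then passed. With the variance trend 7 fell and 2 rose, and after dim genes were left out 7 fell and 3 rose. These 7 were all the genes of the list with a negative change, Sox9, Sox5 and Sox6 included. More of all genes were called lower too: 1621 of 22180 with the variance trend and 1625 of 11090 without dim genes, against 1136 of 22180. The counts that rose were 1414, 1297 and 1216. With the block 1059 of all genes fell and 1278 rose.

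Enzymes and chaperones that modify and fold collagen chains in the endoplasmic reticulum were lower in 7 of 15 measured genes, with none higher and a median change of -0.25. Of all genes 5.12% were lower, as were 13.5% of the genes at least as bright as Col27a1. Colgalt2, which adds galactose to collagen hydroxylysines, fell by 1.07 log2 units (SE 0.12, adjusted p = 4.09e-04), the prolyl 4-hydroxylase gene P4ha3 fell by 1.00 (SE 0.10, adjusted p = 2.29e-04) and the prolyl 3-hydroxylase gene P3h2 fell by 0.74 (SE 0.09, adjusted p = 6.26e-04). Serpinh1, which encodes the collagen chaperone HSP47, read 10.50, 10.72, 10.80 and 10.66 in Ad-Zip8 replicates 1 to 4, against 11.00, 10.98, 11.14 and 11.01 in Ad-null replicates 1 to 4, and fell by 0.37 (SE 0.08, adjusted p = 0.0203). P4ha1, another prolyl 4-hydroxylase gene, did not pass (-0.05, SE 0.09, adjusted p = 0.795), with overlapping groups. Without Ad-Zip8 replicate 1, 4 genes of this list were called, all lower, while 708 of all genes were lower, against 1136 with all arrays.

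Genes of procollagen secretion and trimming fell in 6 of 12 cases with none higher and a median change of -0.23. The shares over all genes were 5.12% lower and 5.48% higher. Pcolce2, an enhancer of C-propeptide removal, fell by 0.72 (SE 0.10, adjusted p = 0.00102), Creb3l2, a membrane-bound factor that raises the secretory machinery of chondrocytes, fell by 0.54 (SE 0.08, adjusted p = 0.00271) and Adamts3, a procollagen N-proteinase gene, fell by 0.81 (SE 0.13, adjusted p = 0.00310) from a dim reading (Ad-null mean 6.14). Of 5 crosslinking genes, Lox, the gene of lysyl oxidase, rose by 1.15 (SE 0.16, adjusted p = 0.00147), its relative Loxl3 fell by 0.51 (SE 0.10, adjusted p = 0.00845) and 3 did not pass.

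**Figure D5:**
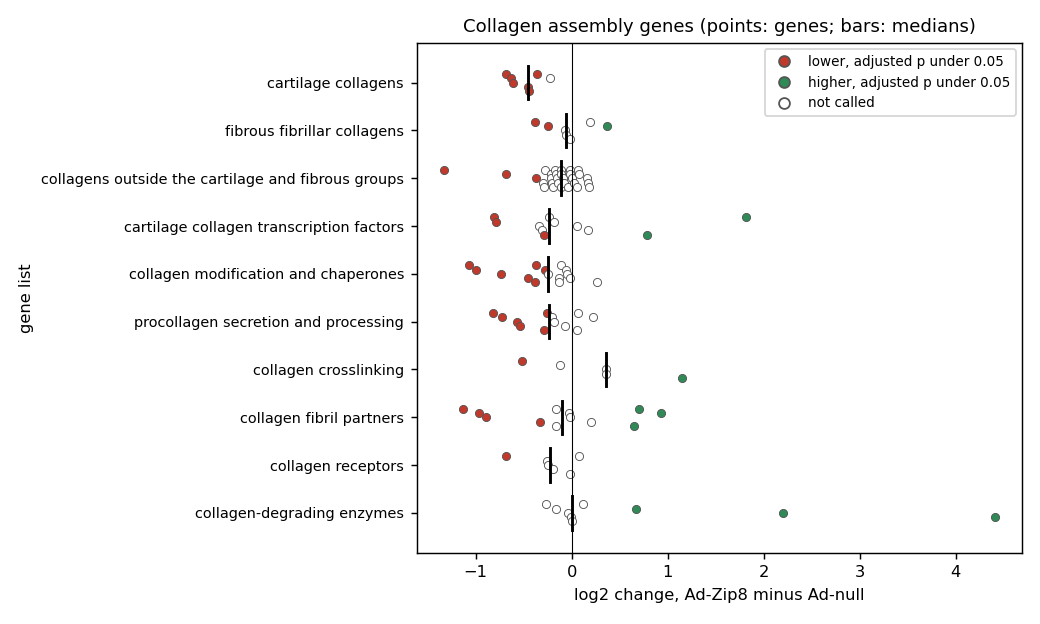
Log2 change, Ad-Zip8 minus Ad-null (x axis), of each gene (points) in the cartilage collagens and 9 related lists (rows), with a black bar at the median; red points fell, green points rose and open points did not pass. The cartilage collagens lie wholly below 0, and Mmp13 is the point at the far right.

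Genes of proteins that bind the collagen fibril moved in both directions, since 4 of 12 fell and 3 rose, while 5 missed the threshold. The median change was -0.09, and 5.12% of all genes fell and 5.48% rose. Matn1 fell by 1.14 log2 units (SE 0.12, adjusted p = 2.16e-04). The small proteoglycan genes Lum, for lumican, and Dcn, for decorin, rose by 0.93 (SE 0.10, adjusted p = 2.59e-04) and 0.70 (SE 0.08, adjusted p = 4.91e-04). Named after their values were seen, Matn3 (-0.96), Chad (-0.89) and Comp (-0.33) also fell and Ecm1 (0.65) rose. The call of Comp (adjusted p = 0.0267) was lost when the replicate number was a block (0.0503). Of 6 collagen receptor genes Itga2, the integrin alpha 2 gene, fell by 0.68 (SE 0.13, adjusted p = 0.00655) and 5 did not pass, whereas with the variance trend or without dim genes 2 fell. Over all genes, 1621 of 22180 fell with the variance trend and 1625 of 11090 without dim genes, against 1136 of 22180 in the main fit.

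Of 9 genes for enzymes and a receptor that take collagen apart, 3 rose and none fell, while 6 missed the threshold. By comparison, 5.48% of all genes rose and 5.12% fell. Mmp13, the main collagen II collagenase, read 12.98, 12.78, 12.89 and 12.87 in Ad-Zip8 replicates 1 to 4, against 8.26, 7.87, 8.49 and 9.26 in Ad-null replicates 1 to 4. The log2 change was 4.41 (SE 0.24, adjusted p = 5.04e-06). The gelatinase genes Mmp9 (2.20, SE 0.19, adjusted p = 8.05e-05) and Mmp2 (0.67, SE 0.09, adjusted p = 8.59e-04) rose as well. Transcript levels do not show collagen protein or its cleavage, which were not measured.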

How the data were processed

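Fragmented sense cDNA carried a biotin label, per the labels' protocols. The deposited log2 values, 1 per probe set and array, come from RMA, according to the submitters' processing notes, with version, annotation and genome build not given in the sources used here. RMA corrects background, quantile normalizes the arrays and summarises probes. The platform annotation gave 1 gene symbol to 23521 of 41345 probe sets, and several to 1814, and these and the other 16010 stay unnamed here. The probe set with the highest mean over the 8 arrays stood for a gene (22180 genes). Each cartilage collagen gene had 1, so splice forms were not told apart. The contrast Ad-Zip8 minus Ad-null was fitted in limma 3.58.1 and R 4.3.3 (lmFit, eBayes, two-sided, no covariates), a script tested on simulated data. Array medians lay between 5.04 and 5.11, and the number of arrays limits the precision. All value columns belonged to the 8 samples. Arrays correlated at 0.991 to 0.993 within groups, so none was a copy.

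The cartilage collagens and the related lists were chosen with earlier results of these data known. The text names the 7 genes, Slc39a8, 9 further fixed genes (Sox9, Sox5, Sox6, Serpinh1, P4ha1, Mmp13, Col1a1, Col3a1 and Col10a1), up to 3 called genes with the smallest adjusted p in each list, and the 5 genes nearest to Col2a1. List members Plod3, Fkbp10, Adamts2, Loxl2, Itga10 and Runx2 were not analysed here. Deviations from group means correlated at 0.11 to 0.37 between same-numbered arrays and at -0.27 to 0.16 between others, so the replicate number was read as a pairing, from the data and not the labels, and 1 alternative has it as a replicate block. The other alternatives were a variance trend, leaving out dim genes, 3 rescalings, the mean over probe sets, leaving out each array and an exact permutation test per gene.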

Additional observations from a re-analysis of the deposited data

Results flagged for a closer look

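Of 114 groups of 4 samples checked over the genes whose own values or changes are given in the report, 16 had a sample whose distance to the nearest of the others took up more of the group's range than Dixon's 95% critical value allows. Chance flags about 1 in 20 such groups. Col2a1 read 13.49 in Ad-null replicate 1, with the other samples of that group at 13.45. Col11a1 read 12.70 in Ad-null replicate 3, with the other samples of that group between 12.52 and 12.55. Col11a2 read 10.93 in Ad-null replicate 3, with the other samples of that group between 10.82 and 10.83. Col27a1 read 8.86 in Ad-Zip8 replicate 2, with the other samples of that group between 8.51 and 8.55. None of these samples crossed into the range of the other group.

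Further samples stood apart for genes of the related lists and the nearest genes. Ad-null replicate 3 read 11.14 for Serpinh1, and the rest of its group between 10.98 and 11.01. Ad-Zip8 replicate 1 read 10.48 for Pcolce2, and the rest of its group between 10.81 and 10.84. Ad-Zip8 replicate 1 read 9.29 for Arid5b, and the rest of its group between 8.93 and 8.98. Ad-Zip8 replicate 2 read 7.17 for Mef2c, and the rest of its group between 7.29 and 7.31. Ad-null replicate 3 read 10.24 for Col1a2, and the rest of its group between 10.44 and 10.48. Ad-Zip8 replicate 3 read 8.98 for Col5a1, and the rest of its group between 9.02 and 9.03. Ad-null replicate 2 read 6.14 for Col14a1, and the rest of its group between 5.80 and 5.83. Ad-Zip8 replicate 3 read 6.42 for Col26a1, and the rest of its group between 6.13 and 6.15. Ad-Zip8 replicate 2 read 12.63 for Dcn, and the rest of its group between 12.74 and 12.75. Ad-Zip8 replicate 1 read 11.67 for Stt3a, and the rest of its group between 11.78 and 11.79. Ad-Zip8 replicate 1 read 9.12 for Lonp1, and the rest of its group between 9.22 and 9.23. Ad-Zip8 replicate 1 read 11.75 for Comp, and the rest of its group between 12.00 and 12.03. Of the 16 cases, 5 were in Ad-Zip8 replicate 1 and 4 were in Ad-null replicate 3.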

How the results depend on the processing

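Over the 7 cartilage collagen genes, 98 of 105 refitted values kept their side of the threshold. The change itself could move only in 77 of them, under 3 rescalings and with 1 array left out, and 0 of those changed direction. Col2a1, with a change of -0.22, was called under the variance trend (adjusted p = 0.00587) and without dim genes (0.0206). The exact permutation test of each gene alone gave all 7 an unadjusted exact p = 0.0286, Col2a1 included, which follows from groups that do not overlap and adds nothing to that. With 1 array left out the change lay between -0.25 and -0.18 for Col2a1 (adjusted p 0.0960 to 0.187), -0.40 and -0.30 for Col11a1 (0.0259 to 0.0622), -0.74 and -0.60 for Col11a2, -0.47 and -0.38 for Col9a1, -0.69 and -0.56 for Col9a2, -0.69 and -0.60 for Col9a3, and -0.54 and -0.42 for Col27a1, and 5 or 6 of the 7 were called lower. Leaving out 1 array gave 4 to 7 genes called for modification and chaperones, 4 to 6 for secretion and processing, 4 to 5 for transcription factors, 3 to 4 for degrading enzymes, 2 to 3 for the other collagens, 5 to 7 for fibril partners and 0 to 1 for fibrous fibrillar collagens, where repeated quantile normalization gave 1. Over all genes, leaving out 1 array gave 708 to 923 lower and 924 to 1119 higher, against 1136 and 1216 with all arrays. Genes called in the transcription factor list, which includes Wwp2, numbered 9 with the variance trend and 10 without dim genes, and receptors 2 in both. Both settings also called a larger share of all genes. With the variance trend 1621 fell and 1414 rose of 22180, and without dim genes 1625 fell and 1297 rose of 11090. With the replicate block Col2a1 had an adjusted p of 0.114 and Col11a1 of 0.0261; the block changed no call of the 7 genes. It changed those of Sox6, Nkx3-2, Col5a1 and Comp given above and, of list genes not named there, Crtap (adjusted p = 0.0645), Sec23a (0.0530) and Sec24d (0.0580), which no longer passed, leaving 6 genes lower for modification and 4 for secretion. Over all genes 1059 fell with the block, against 1136 without it. With the variance trend and without dim genes, 1 gene each was higher for modification and for the other collagens, 2 for crosslinking, and 1 lower for degrading enzymes. Compression near the top of the scale was not measured, which limits what can be said of the size of change in Col2a1.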
